A study of Homo sapiens with 28 samples.

Results

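The genes described here serve protein export into the endoplasmic reticulum (ER) and protein folding inside it. They are 40 of the 58278 genes in the count table, selected by gene symbol from a list of export and folding genes. Of these, 22 act before or during entry into the ER: the SEC61 channel and its partners, the signal recognition particle with its receptor, the signal peptidase and the translocon-associated proteins. The other 18 act after entry, as chaperones, thiol oxidoreductases and stress sensors of the ER. The 40 genes were followed in HCT116 cells, an established human colorectal carcinoma line, grown as xenografts and then as cultures from those xenografts. All 40 were detected well enough to be tested in the tumors and in the cultures.

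A protein destined for secretion carries a signal peptide that the signal recognition particle binds as it leaves the ribosome. The particle docks at its receptor on the ER membrane, the chain passes through the SEC61 channel, and the signal peptidase cuts the signal peptide off. Inside the ER, chaperones such as HSPA5 (BiP) bind the chain while disulfide isomerases set its bonds. When unfolded protein builds up, 3 membrane sensors, ATF6, ERN1 (IRE1) and EIF2AK3 (PERK), start the unfolded protein response, and HSPA5, HERPUD1, DNAJB9 and XBP1 are among its textbook targets.

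The cells carried luciferase and green fluorescent protein and were injected under the skin of male NOD SCID mice, 5 weeks old, which lack functional T and B cells. The mice received oral vehicle (Control, 3 tumors), the CDK4/6 inhibitor Palbociclib at 100 mg/kg/day (5 tumors), the glutaminase inhibitor Telaglenastat at 150 mg/kg/day (4 tumors) or both drugs at those doses (the combination, 4 tumors), for 23 days. The labels spell the second drug Telaglenestat. Residual tumors were also explanted and grown without drug, giving 3 cultures for each of the same 4 treatment histories, and the labels do not link a culture to one of the sequenced tumors. The line is a single cancer line with one genetic background, and p-values measure the spread between these tumors or cultures. In bulk RNA, fewer cells of one type and less RNA per cell cannot be told apart.

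Total counts were 6273834 to 10617936 per tumor and 7198540 to 13815675 per culture. The libraries also differed in a slope of expression on GC content, given here as the change in log2 expression per SD of GC content over genes. Expression was first centered on the mean of each gene, over tumors and over cultures apart. A slope is therefore relative to the other libraries of the same material. This slope was 0.25 to 0.26 in Control tumors and 0.0974 to 0.367 in Palbociclib tumors, but -0.39 to -0.31 in Telaglenastat tumors and -0.29 to -0.16 in combination tumors. The slopes of Telaglenastat and combination tumors overlapped neither each other nor those of Control or Palbociclib tumors. Treatment and this trend therefore cannot be told apart in tumor comparisons that involve either group. Most fold changes in tumors are therefore also given from a fit with an offset that takes a fitted curve on GC content and on gene length out of each library. Summed expression of 24 stromal and immune markers was 300.4 to 356 CPM (counts scaled to a common library total) in Control, 297.9 to 497 in Palbociclib, 122 to 149 in Telaglenastat and 224 to 337 in combination tumors. Among these 24, DCN, LUM, THY1 and CDH5 were at 0 in every Control and Telaglenastat tumor, whereas others had counts. Of the 13 tested, 8 were called lower and 0 higher in Telaglenastat than in Control tumors, against 28.5% and 22.6% of all genes. With the offset 6 were lower and 0 higher, against 7.58% and 5.57%. The summed 6 epithelial markers were 2621 to 3157 CPM in Control, 2880 to 3991 in Palbociclib, 1555 to 1713 in Telaglenastat and 2252 to 2551 in combination tumors. These sums of markers carry no offset. The median log2 fold change of the 6 against Control was -0.82 for Telaglenastat and -0.17 with the offset. For the combination it was -0.23 and 0.20, and for Palbociclib 0.27 and 0.24. The part of these marker differences in the results below was not tested. The tumors grew in mice, whereas reads were aligned to the human genome. Mouse stroma was therefore counted only where its reads aligned to human genes, and the stromal sum may not reflect stromal content. Of the 24 stromal and immune markers, 13 had enough counts to be tested in the tumors. Whether mouse reads were counted for the export and folding genes was not tested.

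The stretch of DNA just upstream of a gene is where factors of the unfolded protein response are known to bind, so the 250 bases before the transcription start were read for 38 of the 40 genes with a RefSeq entry (GRCh38.p14). The ER stress element, searched on both strands as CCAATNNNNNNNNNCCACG, lay upstream of 6 of them, against 0.0916% of 27305 genes. All 6 were ER folding genes, namely CALR, CANX, HSP90B1, HSPA5, PDIA6 and XBP1. A second form, ERSE-II, which is in capitals in the HERPUD1 sequence, lay upstream of HERPUD1, HYOU1 and SDF2L1, against 0.0659% of genes. The core of the unfolded protein response element, TGACGTGG, lay upstream of 5 members, SEC62, SRP19, SSR3, SSR4 and HYOU1, against 0.78% of genes. In HYOU1 it overlapped a match of the second form. The shorter TGATGNAA, a core bound by ATF4, lay upstream of HERPUD1 and SRPRB and of 3.89% of genes. Below are the last 150 bases before the start for 3 folding genes and 2 export genes that moved in the tumors, 5′ to 3′ on the strand of the gene, with the matched motif letters in capitals. For XBP1 the window that holds a match is shown.
HSPA5 chr9:125241344-125241493 minus strand: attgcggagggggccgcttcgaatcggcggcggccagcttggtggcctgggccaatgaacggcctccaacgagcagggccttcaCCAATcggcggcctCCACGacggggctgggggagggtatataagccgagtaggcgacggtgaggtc
XBP1 chr22:28800570-28800719 minus strand: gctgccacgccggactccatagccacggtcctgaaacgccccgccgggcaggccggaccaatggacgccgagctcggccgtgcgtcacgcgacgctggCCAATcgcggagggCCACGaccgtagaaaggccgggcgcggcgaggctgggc
HERPUD1 chr16:56931992-56932141 plus strand: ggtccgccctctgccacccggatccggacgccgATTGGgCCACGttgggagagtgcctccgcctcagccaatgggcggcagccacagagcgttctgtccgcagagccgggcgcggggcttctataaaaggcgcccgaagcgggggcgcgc
SEC62 chr3:169966657-169966806 plus strand: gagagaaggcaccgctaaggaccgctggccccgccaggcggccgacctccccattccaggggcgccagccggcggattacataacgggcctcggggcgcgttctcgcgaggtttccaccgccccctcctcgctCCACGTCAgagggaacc
SRP19 chr5:112861137-112861286 plus strand: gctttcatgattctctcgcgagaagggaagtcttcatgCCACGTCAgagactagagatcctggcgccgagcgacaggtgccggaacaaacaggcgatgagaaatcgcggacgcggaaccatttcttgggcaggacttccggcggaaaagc
A match describes these letters and not a bound site. Genes with matches moved both ways in the tumors below, since HSPA5, XBP1 and HERPUD1 rose with the combination while SDF2L1 and HYOU1 fell in the fit without the offset.

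Abundance differed widely among the 40 genes. Per kilobase of exon, the chaperones led in Control tumors, with HSP90B1 (GRP94) at 355 ± 26.5 (SD, n = 3) CPM per kilobase, CALR (calreticulin, which binds glycoproteins) at 319 ± 17.8 and HSPA5 at 251 ± 27.3. The ranges of 1 SD around the mean overlapped for HSP90B1 and CALR but not for CALR and HSPA5. The export gene with the most signal per kilobase was SRP9, a small subunit of the signal recognition particle, at 148.5 ± 5.11 CPM per kilobase. SEC61A1, the pore-forming subunit in common use, was at 60.8 ± 4.82 CPM per kilobase, and its second copy SEC61A2 was at 1.98 ± 0.557. The sensor ERN1 was at 2.22 ± 0.101 and EIF2AK3 at 6.19 ± 1.19 CPM per kilobase. Summed over the 40 genes, expression was 9679 to 10890 CPM in Control, 10340 to 11490 in Palbociclib, 10870 to 12770 in Telaglenastat and 11910 to 13860 in combination tumors. The combination tumors thus lay wholly above the Control tumors in this sum, whereas in the cultures, at 11040 to 12420 CPM, the ranges of the 4 treatment histories overlapped. These sums carry no offset, so the trend on GC content is not taken out of them, and the most abundant chaperones weigh most in them.

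**Figure D1:**
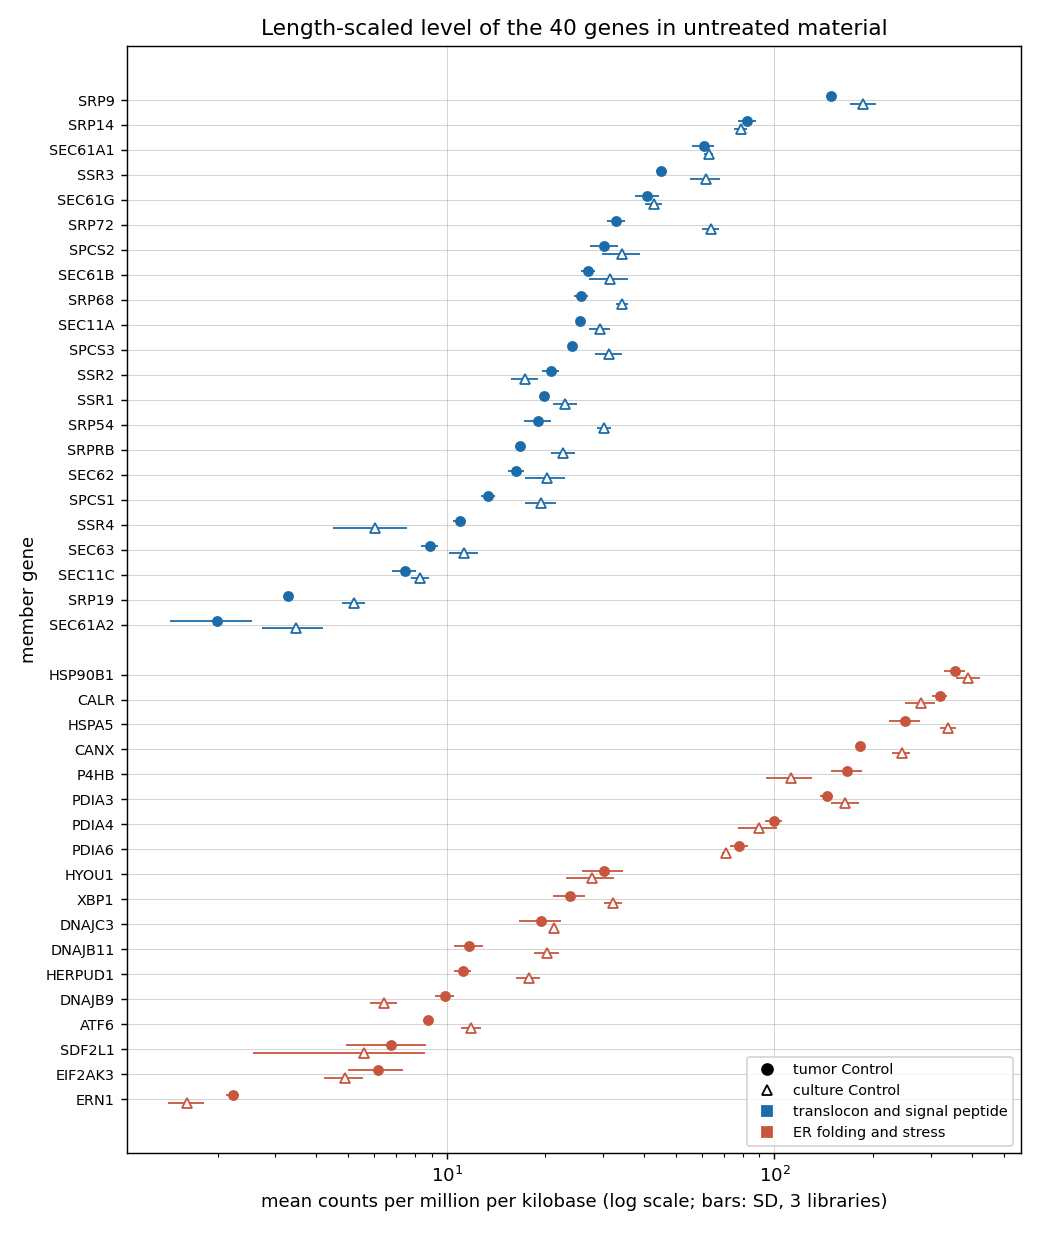
Mean expression per kilobase of exon (CPM per kilobase, log axis) of the 40 genes in the 3 Control tumors and the 3 Control cultures. Points are means of a group, with bars of SD. Chaperones such as HSP90B1, at 355 CPM per kilobase in Control tumors, stood far above ERN1, at 2.22.

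Combination tumors against Control tumors asked what the residual tumors expressed after both drugs. Of the 40 genes, 24 rose and 8 fell, at an adjusted p under 0.05 in edgeR's quasi-likelihood test, against 17.6% of all 14848 genes tested that rose and 26.9% that fell. Shares over all genes, here and below, were not matched to the members for abundance. With the offset for GC content and gene length, 18 members rose and 3 fell, against 13% and 13.1% of all genes, and 19 members passed in both fits. Of these 19, 17 had the same direction in both, while SSR4 and CALR (calreticulin) were called lower without the offset and higher with it. The median log2 fold change of the 40 was 0.38 without the offset and 0.19 with it, while the median over all genes was -0.04 and 0.00 respectively. In the export group 13 of 22 rose and 3 fell, and in the folding group 11 of 18 rose and 5 fell. With the offset these counts were 10 and 3 in the export group and 8 and 0 in the folding group. The median log2 fold change was 0.38 in the export group and 0.34 in the folding group, and 0.22 and 0.19 with the offset.

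Among the export genes, SRP19 has a role in assembling the signal recognition particle. Its expression was 34.4, 33.6 and 35.7 CPM in the Control tumors and 68.0, 57.7, 58.4 and 44.5 CPM in the combination tumors. No combination tumor reached down to the Controls (log2 fold change 0.62 ± 0.12 SE, adjusted p = 0.000214, and with the offset 0.46 ± 0.12 SE, adjusted p = 0.00586). SPCS3, an accessory subunit of the signal peptidase, was at 168, 166 and 159 CPM in Control and 295, 271, 256 and 243 CPM in combination tumors, again without overlap (log2 fold change 0.59 ± 0.07 SE, adjusted p = 2.33e-06, and with the offset 0.37, adjusted p = 0.000109). SSR1, the alpha subunit of the translocon-associated protein complex, which assists entry at the channel, was at 222, 226 and 228 CPM in Control and 392, 375, 367 and 313 CPM in combination tumors. It too rose in every combination tumor (log2 fold change 0.58 ± 0.08 SE, adjusted p = 8.20e-06, and with the offset 0.42, adjusted p = 0.000105). SRP19 and SSR1 overlap other annotated genes on their own strand, and SSR1 has a processed pseudogene, so their counts may hold reads of those.

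SRP14, which pairs with SRP9 at the part of the particle that slows translation, went the other way. It was at 161, 178 and 158 CPM in Control and 157, 153, 136 and 127 CPM in combination tumors, with every combination tumor below the Controls (log2 fold change -0.31 ± 0.08 SE, adjusted p = 0.00335, and with the offset -0.44, adjusted p = 0.000362). SRP68, a core protein of the same particle, was at 186, 199 and 204 CPM in Control and 183, 185, 158 and 173 CPM in combination tumors (log2 fold change -0.27 ± 0.07 SE, adjusted p = 0.00295, and with the offset -0.28, adjusted p = 0.00247). Within the signal recognition particle, then, subunits moved in opposite directions in both fits. SSR4, the delta subunit of the translocon-associated complex, was at 47.6, 52.3 and 50.8 CPM in Control and 31.8, 34.8, 33.9 and 38.4 CPM in combination tumors. Without the offset it fell (log2 fold change -0.63 ± 0.11 SE, adjusted p = 6.86e-05), and with the offset its sign turned and it was called higher (0.31 ± 0.11 SE, adjusted p = 0.043). SSR4 has therefore no direction that holds in both fits.

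Among the folding genes, HSPA5, the main ER chaperone and the switch that keeps the sensors inactive, was at 902, 1101 and 935 CPM in Control and 1724, 1873, 1664 and 1565 CPM in combination tumors. The lowest combination tumor was above the highest Control (log2 fold change 0.70 ± 0.10 SE, adjusted p = 9.78e-06, and with the offset 0.52 ± 0.09 SE, adjusted p = 0.000209). XBP1, the transcription factor whose RNA ERN1 splices, was at 70.1, 80.8 and 64.8 CPM in Control and 112, 119.9, 125 and 99.6 CPM in combination tumors (log2 fold change 0.56 ± 0.11 SE, adjusted p = 0.000376, and with the offset 0.46, adjusted p = 0.00234). Counts per gene do not separate its spliced form from its unspliced form. HERPUD1, a membrane protein of ER-associated degradation, was at 55.0, 61.5 and 56.9 CPM in Control and 82.4, 90.5, 94.0 and 78.9 CPM in combination tumors (log2 fold change 0.48 ± 0.13 SE, adjusted p = 0.00541, and with the offset 0.37, adjusted p = 0.0366). DNAJB9 (ERdj4), a J-domain partner of HSPA5, had the largest rise of the folding group. It was at 27.3, 30.1 and 26.4 CPM in Control and 54.1, 57.2, 61.9 and 49.5 CPM in combination tumors, 1.86-fold higher (log2 fold change 0.89 ± 0.14 SE, adjusted p = 2.29e-05, and with the offset 0.67, adjusted p = 0.00121). The groups did not overlap for any of these 4 genes. Of the 40 members, 26 lay wholly above and 6 wholly below the Controls. The share over all genes was not counted, so these counts cannot be set against a background.

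Other folding genes were called lower without the offset and gave no call with it. SDF2L1, a partner of ER J-domain proteins expressed at a low level, was at 6.27, 9.79 and 6.25 CPM in Control and 1.31, 1.95, 2.52 and 2.20 CPM in combination tumors (log2 fold change -1.98 ± 0.32 SE, adjusted p = 4.53e-05, and with the offset -0.76 ± 0.29 SE, adjusted p = 0.0549). P4HB, a protein disulfide isomerase, was at 805, 988 and 858 CPM in Control and 604, 632, 624 and 546 CPM in combination tumors (log2 fold change -0.66 ± 0.08 SE, adjusted p = 3.35e-06), and with the offset the value turned to 0.11 and did not pass (adjusted p = 0.346). HYOU1 (GRP170), a nucleotide exchange factor for HSPA5, was at 196, 262 and 239 CPM in Control and 176, 172, 166 and 157 CPM in combination tumors (log2 fold change -0.57 ± 0.09 SE, adjusted p = 5.08e-05, and with the offset -0.04, adjusted p = 0.8). With the offset SDF2L1 kept a negative value that narrowly missed the threshold, and P4HB and HYOU1 lay near 0.

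**Figure D2:**
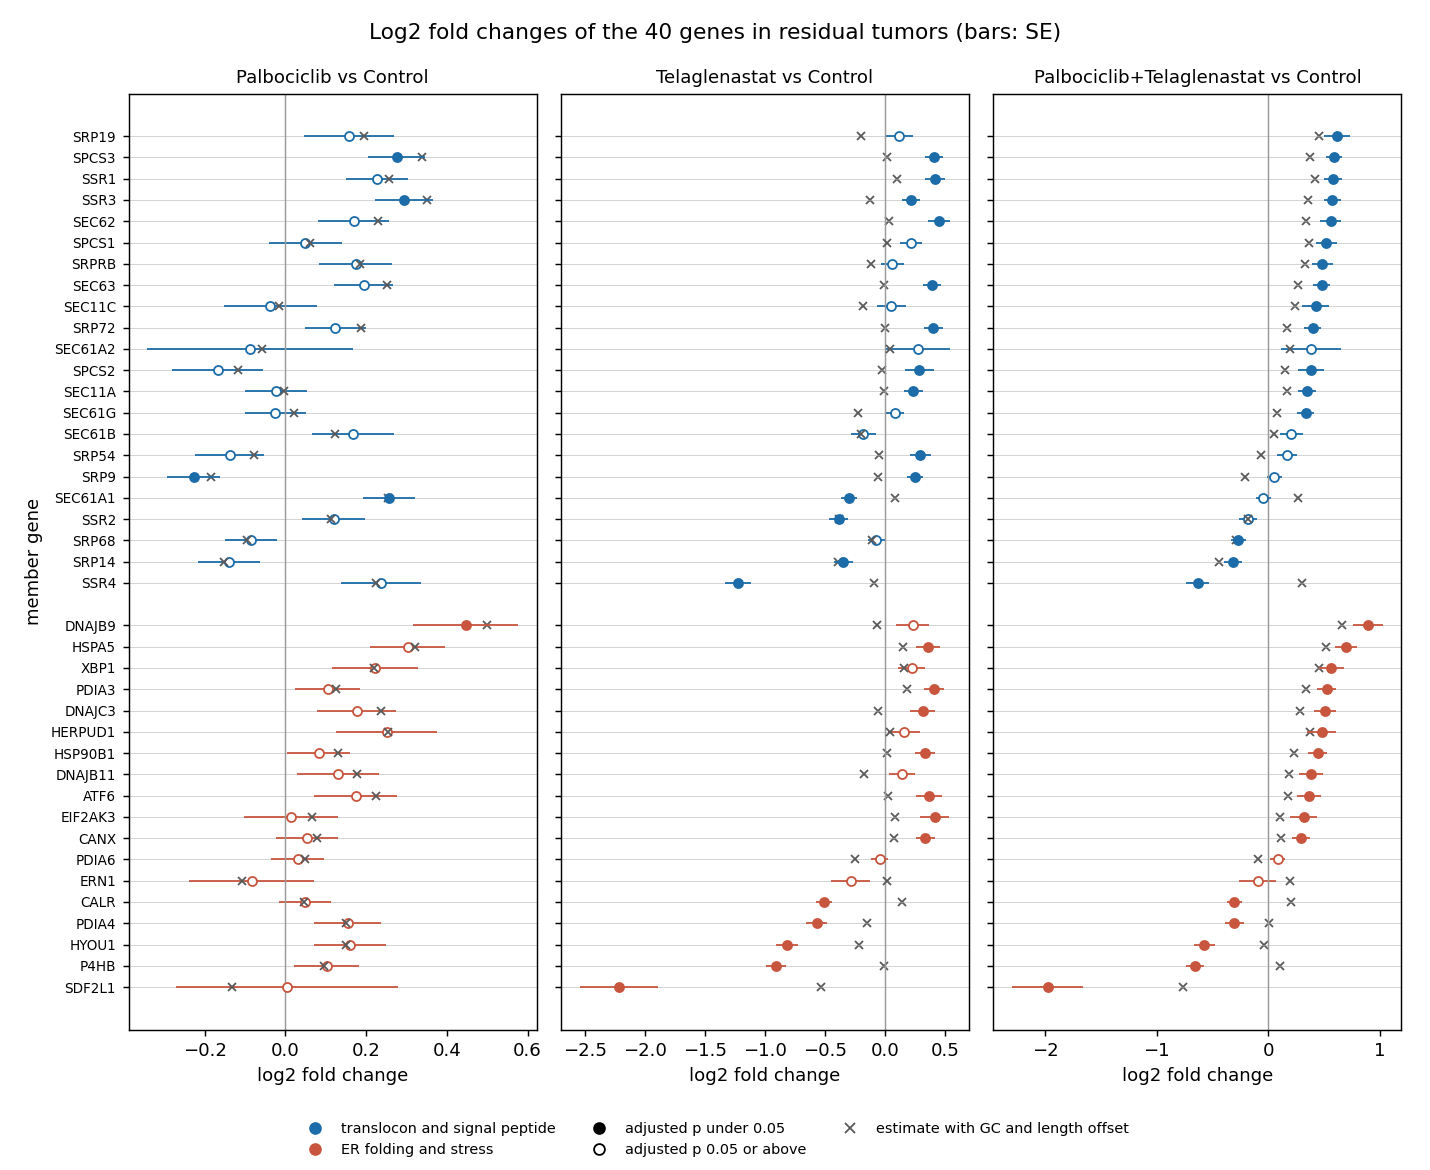
Log2 fold changes of the 40 genes in treated tumors against Control tumors, with export genes and folding genes set apart. Circles with bars of 1 SE are from the fit without the offset, and crosses are estimates with it. Without the offset DNAJB9 lay highest in the combination, at 0.89, and SDF2L1 lowest, at -1.98.

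**Figure D3:**
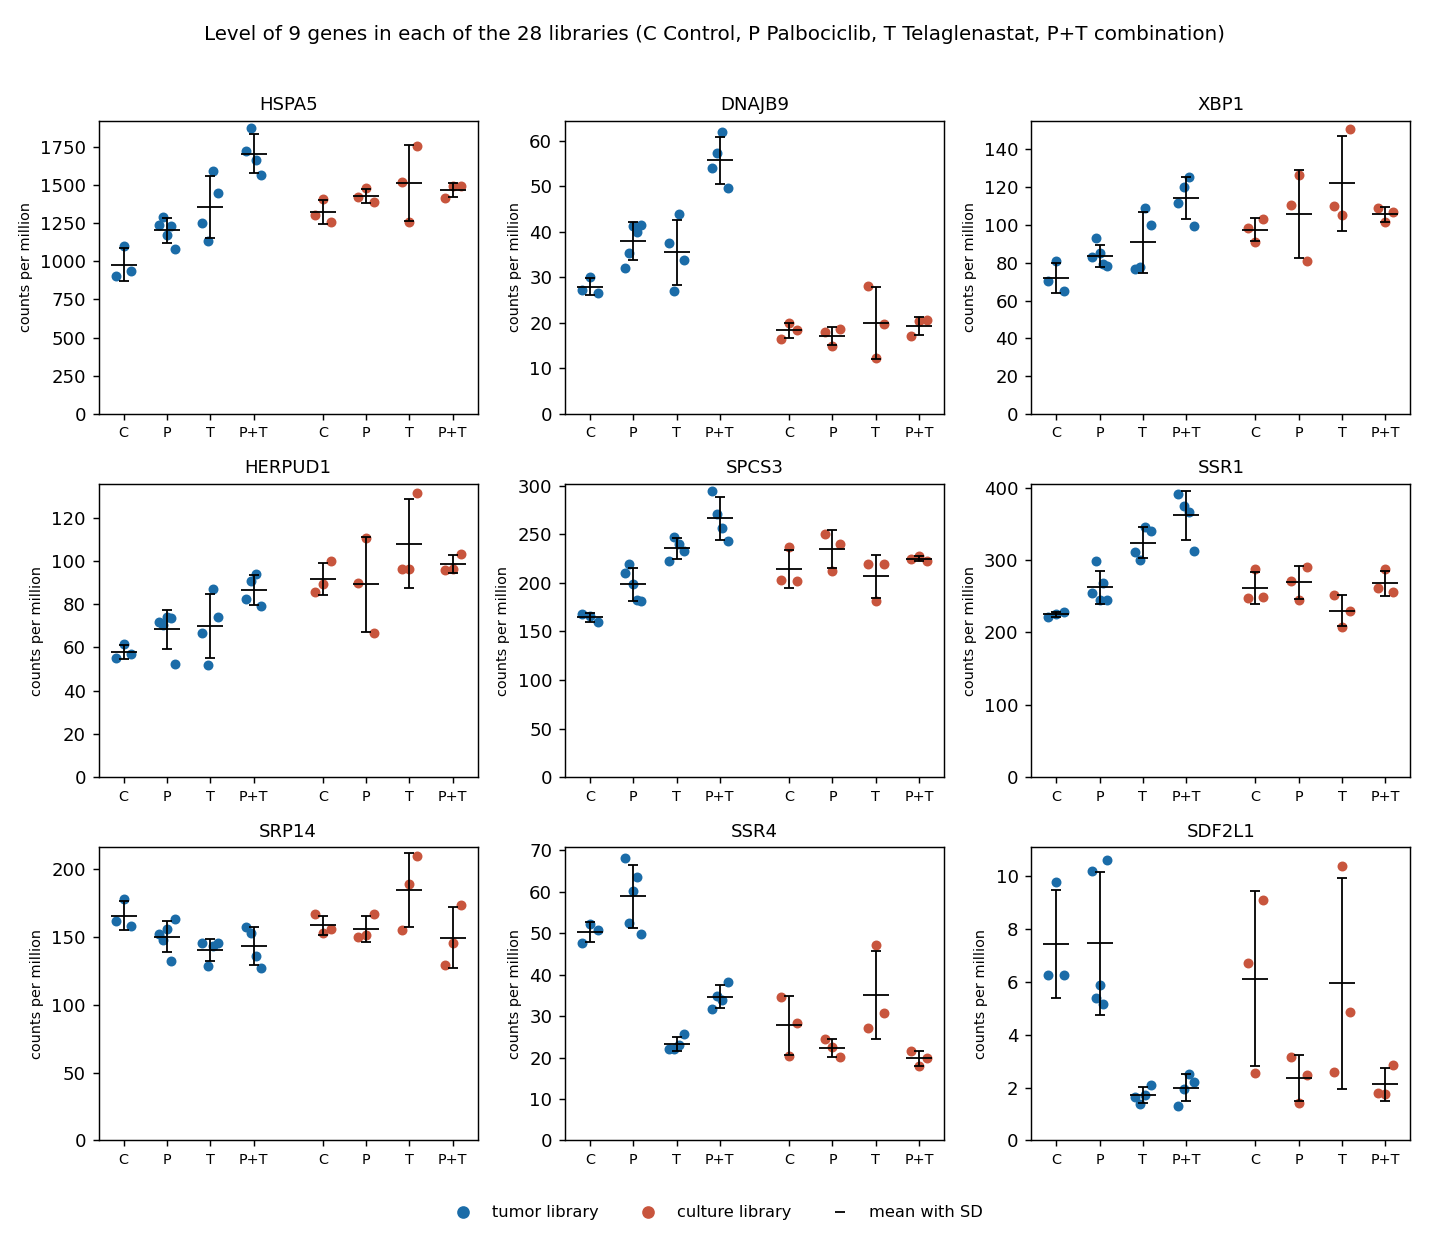
CPM of named members in each of the 28 libraries, grouped by tumor or culture and by treatment, each point being one library. HSPA5 was at 902 to 1101 CPM in Control tumors and 1565 to 1873 CPM in combination tumors.

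Telaglenastat tumors against Control tumors asked for the response to glutaminase inhibition alone. This comparison and that of Palbociclib share their 3 Control tumors with the one above. Without the offset 17 members rose and 9 fell, against 22.6% of all genes that rose and 28.5% that fell. In the export group 10 rose and 4 fell, and in the folding group 7 rose and 5 fell. With the offset 0 rose and 3 fell, against 5.57% and 7.58% of all genes, and the median log2 fold change of the members went from 0.22 to -0.01. The 3 called lower with the offset were SRP14, SSR2 and PDIA6, and 2 members, SRP14 and SSR2, passed in both fits. PDIA6 was called only with the offset. Its CPM, which carry no offset, overlapped, at 297, 334 and 328 in Control and 329, 321, 344 and 345 in Telaglenastat tumors. Across the 40 genes the log2 fold change correlated with GC content at r = -0.914 without the offset and -0.305 with it, as a description over genes that share the same libraries and were measured in the same fit.

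SSR2, the beta subunit of the translocon-associated complex, was at 128, 142 and 143 CPM in Control and 100.1, 118, 121 and 117 CPM in Telaglenastat tumors, which lay below every Control (log2 fold change -0.38 ± 0.08 SE, adjusted p = 0.000628, and with the offset -0.38 ± 0.08 SE, adjusted p = 0.00262). SRP14 was at 161, 178 and 158 CPM in Control and 145, 128, 143 and 146 CPM in Telaglenastat tumors, also without overlap (log2 fold change -0.35 ± 0.08 SE, adjusted p = 0.00134, and with the offset -0.39 ± 0.08 SE, adjusted p = 0.00182). These falls were of like size in both fits. The GC content of these genes was 49.8% and 48.4%. The median was 48.9% over all tested genes, on which the offset was fitted, and 45.6% over the members.

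The rises named under Telaglenastat were not called with the offset. SEC62, which helps posttranslational entry at the channel, was at 124, 137 and 126 CPM in Control and 186, 192, 198 and 182 CPM in Telaglenastat tumors. It rose without the offset (log2 fold change 0.45 ± 0.09 SE, adjusted p = 0.000457), and with the offset the value was 0.04 and did not pass. SSR1, at 311, 301, 345 and 340.2 CPM in these tumors, had a value of 0.42 ± 0.08 without the offset (adjusted p = 0.000238) and 0.10 with it (adjusted p = 0.389). SPCS3, at 222, 247, 240.3 and 233 CPM, had 0.41 ± 0.07 (adjusted p = 0.000114) and 0.02 with the offset (adjusted p = 0.864). Of the folding genes, HSPA5 was at 1253, 1134, 1592 and 1447 CPM, above every Control (log2 fold change 0.36 ± 0.10 SE, adjusted p = 0.0044), and with the offset it did not pass (0.15 ± 0.09 SE, adjusted p = 0.313). PDIA3 (ERp57), the disulfide isomerase that works with calreticulin and calnexin, was at 583, 638 and 619.8 CPM in Control and 877, 749.5, 1019 and 869 CPM in Telaglenastat tumors (0.41 ± 0.08, adjusted p = 0.000468, and with the offset 0.19, adjusted p = 0.11). The sensors ATF6 and EIF2AK3 rose without the offset, by 0.37 (adjusted p = 0.00725) and 0.41 (adjusted p = 0.00756) on the log2 scale, and neither passed with it (0.03, adjusted p = 0.909, and 0.09, adjusted p = 0.713). ATF6 was at 66.8, 69.0 and 71.4 CPM in Control and 90.8, 105, 104 and 85.8 CPM in Telaglenastat tumors, and EIF2AK3 at 33.9, 39.97 and 27.0 CPM and 47.0, 45.6, 58.8 and 42.6 CPM. The EIF2AK3 call was also lost without Control tumor 3 (log2 fold change 0.28, adjusted p = 0.0704). XBP1, at 76.5, 77.7, 109 and 99.99 CPM in Telaglenastat tumors, overlapped the Controls and did not pass in either fit (log2 fold change 0.22 ± 0.11 SE, adjusted p = 0.103, and with the offset 0.16, adjusted p = 0.374). HERPUD1, at 66.5, 52.0, 86.9 and 74.2 CPM, overlapped them too (log2 fold change 0.16 ± 0.13 SE, adjusted p = 0.317, and with the offset 0.04, adjusted p = 0.894).

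SSR4, P4HB, HYOU1 and SDF2L1, all GC-rich, fell in the Telaglenastat tumors without the offset and gave no call with it. SSR4 was at 22.1, 22.1, 23.1 and 25.6 CPM, less than any Control tumor (log2 fold change -1.22 ± 0.11 SE, adjusted p = 4.00e-08, and with the offset -0.09, adjusted p = 0.695). P4HB was at 520.0, 490.4, 529.8 and 496 CPM (log2 fold change -0.90 ± 0.08 SE, adjusted p = 5.85e-08, and with the offset -0.01, adjusted p = 0.981). HYOU1 was at 147, 129, 144 and 149.9 CPM (-0.81 ± 0.09, adjusted p = 6.71e-07, and with the offset -0.21, adjusted p = 0.137). SDF2L1 was at 1.66, 1.39, 1.72 and 2.10 CPM (log2 fold change -2.21 ± 0.33 SE, adjusted p = 1.33e-05, and with the offset -0.53 ± 0.29 SE, adjusted p = 0.271). The contrast in base composition can be read from the sequences. Below are the central 60 coding bases of 2 members that fell and 2 of low GC content, chosen as illustration, with G and C in capitals, from the GENCODE 29 transcripts.
SDF2L1 coding bases 304 to 363: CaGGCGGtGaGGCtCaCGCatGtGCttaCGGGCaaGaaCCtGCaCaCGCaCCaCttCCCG
SSR4 coding bases 232 to 291: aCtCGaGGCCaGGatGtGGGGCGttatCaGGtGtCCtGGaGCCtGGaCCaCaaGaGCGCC
SEC62 coding bases 571 to 630: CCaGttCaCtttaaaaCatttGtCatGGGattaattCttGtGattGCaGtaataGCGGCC
DNAJB9 coding bases 307 to 366: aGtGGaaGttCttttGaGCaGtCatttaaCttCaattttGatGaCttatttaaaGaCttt
G and C made up 63.3% of the SDF2L1 and SSR4 stretches, 38.3% of the SEC62 stretch and 28.3% of the DNAJB9 stretch. Over the whole exonic sequence the GC content was 66.1% for SDF2L1 (ENSG00000128228.4, chr22:21642261-21644298, hg38) and 60.3% for SSR4 (ENSG00000180879.13, chrX:153793516-153798505), against 38.4% for SEC62 (ENSG00000008952.16, chr3:169966635-169998373) and 42.1% for DNAJB9 (ENSG00000128590.4, chr7:108569568-108574850). The median over the 40 members was 45.6% and over the tested genes 48.9%, so the members lay on the AT-rich side of the genes they were compared with.

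**Figure D4:**
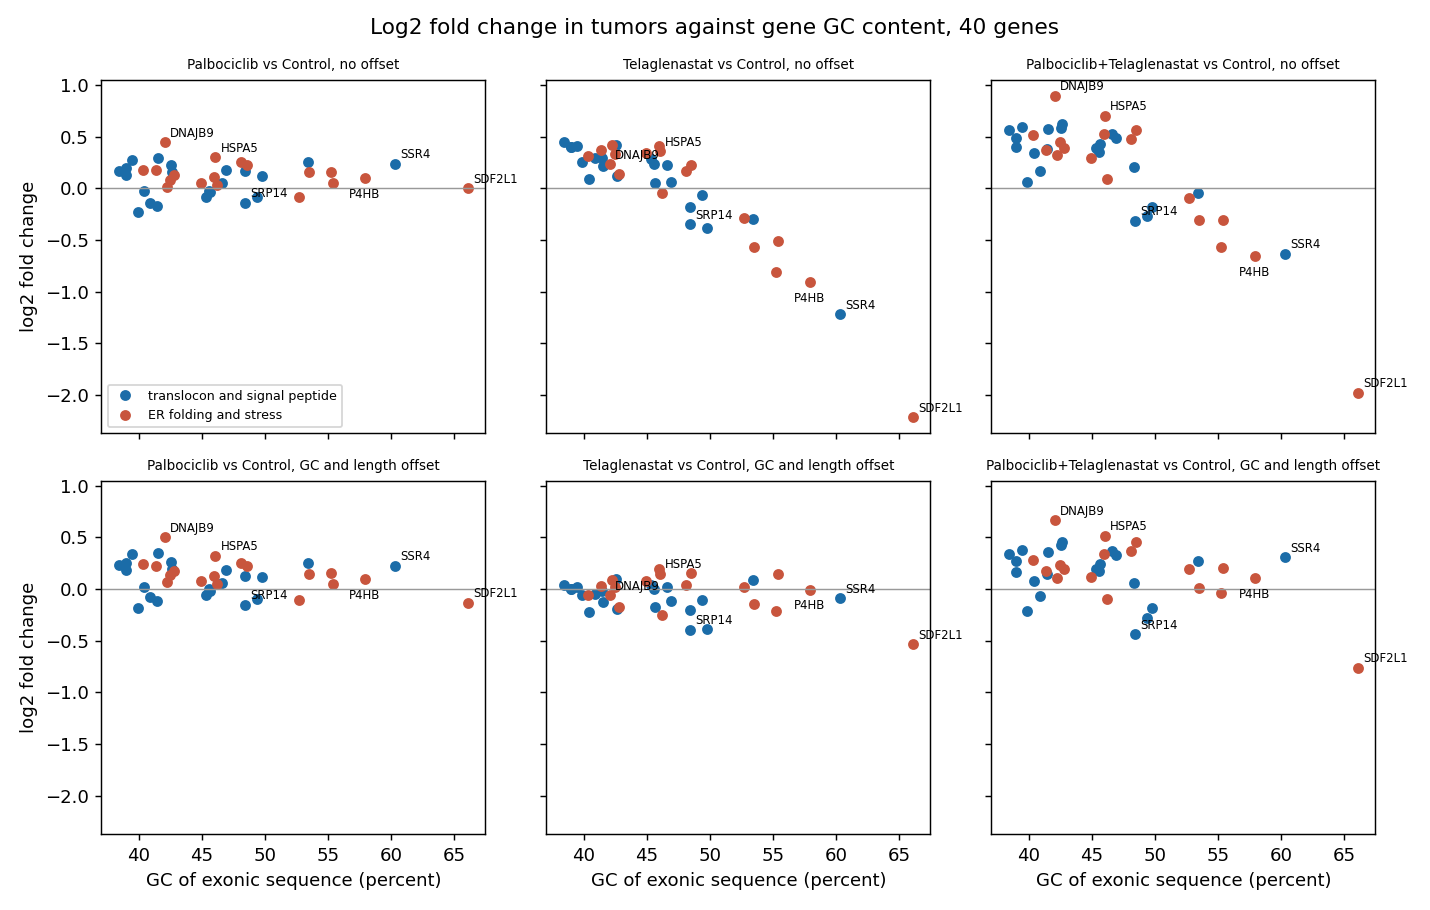
Log2 fold change of each of the 40 genes against the GC content of its exons (percent), for treated tumors against Control tumors. The top row is from the fit without the offset and the bottom row from the fit with it. In the top row the points fall with GC content for Telaglenastat (r = -0.914) and for the combination (r = -0.837), and show no slope for Palbociclib (r = -0.00673). In the bottom row r was -0.305, -0.402 and -0.223 in that order.

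Palbociclib tumors against Control tumors asked for the response to CDK4/6 inhibition alone. Here 4 members rose and 1 fell, against 2.55% of all genes that rose and 3.6% that fell. With the offset 7 rose and 1 fell, against 3.86% and 4.05%, and the 5 called members passed in both fits. SEC61A1, the channel subunit, was at 263, 285 and 308 CPM in Control and 366, 327, 338, 336 and 333 CPM in Palbociclib tumors, every one of them above the Controls (log2 fold change 0.26 ± 0.06 SE, adjusted p = 0.0175, and with the offset 0.25, adjusted p = 0.0103). SSR3, the gamma subunit of the translocon-associated complex, was at 200, 215 and 212 CPM in Control and 276, 276, 249, 237 and 239 CPM in Palbociclib tumors (log2 fold change 0.29 ± 0.07 SE, adjusted p = 0.0146, and with the offset 0.35, adjusted p = 0.0011). SPCS3 was at 210.0, 219, 199, 183 and 181 CPM in the Palbociclib tumors, all above the Control values given above (log2 fold change 0.28 ± 0.07 SE, adjusted p = 0.02, and with the offset 0.34, adjusted p = 0.000651). SRP9 fell, from 247, 265 and 257 CPM in Control to 218, 243, 226, 196 and 209 CPM in Palbociclib tumors (log2 fold change -0.23 ± 0.07 SE, adjusted p = 0.0449, and with the offset -0.18, adjusted p = 0.0389). It has 1 processed pseudogene named after it, which may share reads with it.

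One folding gene was called under Palbociclib without the offset. DNAJB9 was at 32.0, 35.4, 41.4, 39.9 and 41.5 CPM, against 27.3, 30.1 and 26.4 CPM in Control (log2 fold change 0.45 ± 0.13 SE, adjusted p = 0.0447, and with the offset 0.50, adjusted p = 0.0215). HSPA5 was at 1237, 1293, 1174, 1234 and 1081 CPM, a range that overlapped the Control range, and passed only with the offset (log2 fold change 0.30 ± 0.09 SE, adjusted p = 0.0606, and with the offset 0.32, adjusted p = 0.0198). HERPUD1 was at 71.7, 70.2, 73.9, 73.8 and 52.4 CPM (log2 fold change 0.25 ± 0.12 SE, adjusted p = 0.298, and with the offset 0.26, adjusted p = 0.247). XBP1 was at 83.0, 93.0, 84.9, 79.2 and 78.2 CPM (log2 fold change 0.22 ± 0.11 SE, adjusted p = 0.276, and with the offset 0.22, adjusted p = 0.205). Of the 5 calls made under Palbociclib without the offset, 0 were kept without Control tumor 1 or Control tumor 2, and 1, SEC61A1, without Control tumor 3. DNAJB9 and SRP9 lost theirs without Palbociclib tumor 3, 4 or 5, and SRP9 also without Palbociclib tumor 1.

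Combination tumors were next set against each single drug. These comparisons share the combination tumors with the comparison above. The GC slopes of Telaglenastat tumors were nearer to those of the combination than Control slopes were, but still did not overlap those of the combination. Treatment and the trend cannot be told apart here either. Against Telaglenastat tumors 15 members rose and 2 fell, against 8.93% of all genes that rose and 9.89% that fell. With the offset 18 rose and 1 fell, against 8.53% and 7.07%, and 12 members passed in both fits. In the export group 9 rose and 2 fell without the offset, and in the folding group 6 rose and 0 fell. DNAJB9 was at 37.5, 26.9, 43.9 and 33.7 CPM in Telaglenastat and 54.1, 57.2, 61.9 and 49.5 CPM in combination tumors, without overlap (log2 fold change 0.66 ± 0.12 SE, adjusted p = 0.000854, and with the offset 0.73, adjusted p = 0.000424). HSPA5 was higher in the combination (log2 fold change 0.34 ± 0.09 SE, adjusted p = 0.0113, and with the offset 0.37, adjusted p = 0.00328), though its highest Telaglenastat tumor, at 1592 CPM, was above the lowest combination tumor, at 1565 CPM. XBP1 also overlapped between these groups (log2 fold change 0.34 ± 0.10 SE, adjusted p = 0.0254, and with the offset 0.30, adjusted p = 0.0351), and its call was lost without Telaglenastat tumor 1 or 2 or combination tumor 2 or 3 (adjusted p = 0.0605 to 0.0905).

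In the export group SRP19 was at 39.9, 33.7, 45.0 and 43.6 CPM in Telaglenastat tumors and higher in the combination, with 1 combination tumor at 44.5 CPM inside their range (log2 fold change 0.50 ± 0.11 SE, adjusted p = 0.00268, and with the offset 0.65, adjusted p = 0.000255). SRPRB, the membrane-bound subunit of the receptor for the particle, was at 72.9, 69.9, 89.0 and 84.4 CPM in Telaglenastat and 99.5, 109.7, 119 and 93.3 CPM in combination tumors (log2 fold change 0.43 ± 0.09 SE, adjusted p = 0.00194, and with the offset 0.44, adjusted p = 0.000683). SSR4 was higher in the combination than under Telaglenastat in both fits (0.59, adjusted p = 0.000626, and with the offset 0.40, adjusted p = 0.0168). SRP68 fell by 0.20 on the log2 scale (adjusted p = 0.0311, and with the offset -0.18, adjusted p = 0.0436), at 206, 191, 205 and 204 CPM in Telaglenastat tumors. SRP9 fell by 0.19 (adjusted p = 0.0395) from 334, 321, 322 and 339 CPM to 309, 289, 269.9 and 278 CPM, and with the offset it did not pass (-0.15, adjusted p = 0.0578). When single tumors were dropped in turn, without the offset, SRP68 and SRP9 each failed the threshold in 6 of 8 cases. The total of 17 calls was 10 without Telaglenastat tumor 2, 11 without Telaglenastat tumor 1 and 11 without combination tumor 2.

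Against Palbociclib tumors, 24 members rose and 10 fell without the offset, against 20.1% of all genes that rose and 27.5% that fell. With the offset 2 rose and 3 fell, against 6.78% and 7.71%, and the median log2 fold change of the members went from 0.29 to 0.05. Most of these calls were therefore not made once the trend on GC content and length was taken out.

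In the cultures, grown without drug, no member passed the test in any of the 5 comparisons of treatment histories. Over all 13985 genes tested the share called in either direction was 0% for Palbociclib against Control, 0% for Telaglenastat against Control, 0.00715% for the combination against Control, 0% for the combination against Palbociclib and 0% against Telaglenastat. At an unadjusted p under 0.05, 1, 1, 3, 0 and 5 members passed in these comparisons in that order, and DESeq2 called 2 members in the last and 0 in the others. HSPA5 was at 1301, 1410 and 1260 CPM in Control cultures, 1421, 1482 and 1391 CPM in Palbociclib cultures, 1523, 1257 and 1759 CPM in Telaglenastat cultures and 1416, 1493 and 1495 CPM in combination cultures. DNAJB9 was at 16.5, 19.9 and 18.5 CPM in Control and 17.0, 20.4 and 20.5 CPM in combination cultures, and SPCS3 at 203, 237 and 202 CPM and 225, 227 and 222 CPM. XBP1 was at 98.5, 91.0 and 103 CPM in Control, 110.4, 126 and 80.8 CPM in Palbociclib, 109.9, 105 and 151 CPM in Telaglenastat and 109, 101 and 107 CPM in combination cultures. HERPUD1 was at 85.7, 89.0 and 100.1 CPM, 90.0, 110.5 and 66.8 CPM, 96.0, 96.1 and 132 CPM and 95.7, 96.4 and 103 CPM in the same order. For DNAJB9, SPCS3, XBP1 and HERPUD1 the Control and combination cultures overlapped, and for HSPA5 the lowest combination culture, at 1416 CPM, was next to the highest Control culture, at 1410 CPM.

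Whether an effect in tumors differed from that in cultures was tested as an interaction over all 28 libraries. For the combination 7 members differed, 5 export and 2 folding genes, all with the larger effect in tumors, against 2.91% of all genes in either direction. The differences in log2 fold change were 0.70 ± 0.15 SE for SSR3, 0.65 ± 0.13 for SSR1, 0.65 ± 0.16 for HSPA5, 0.64 ± 0.16 for SRPRB, 0.62 ± 0.13 for SPCS3, 0.62 ± 0.16 for DNAJC3 (an HSPA5 cochaperone that inhibits EIF2AK3) and 0.47 ± 0.12 for SRP72 (a core subunit of the particle), with adjusted p from 0.0111 to 0.0376. With the offset SSR3, SSR1 and SPCS3 passed, against 2.68% of all genes, and HSPA5 (0.44, adjusted p = 0.0535), SRPRB (0.44), DNAJC3 (0.42) and SRP72 (0.28) did not. The count of 7 became 3 without the filter on low counts or with DESeq2 size factors, and 21 when only the 4 groups concerned were fitted. For Telaglenastat 17 members differed, 11 with a higher and 6 with a lower value in tumors, against 34.1% of all genes. This count was 9 without the filter and 11 when only its 4 groups were fitted. With the offset 2 differed, SRP14 (-0.52, adjusted p = 0.0339) and SSR2 (-0.65, adjusted p = 0.00353), both lower, against 3.89%. For Palbociclib 0 members differed by edgeR, 7 at an unadjusted p under 0.05 and 1 by DESeq2, against 1.39% of all genes. The culture with Telaglenastat history numbered 2 had the steepest GC slope of its group, 0.43, and leaving it out gave 13 members for the combination, 9 for Telaglenastat and 1 for Palbociclib.

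Control tumors against Control cultures compared the same line in the 2 settings without drug. The setting cannot be told apart here from any difference in when or how the libraries were made. In tumors 4 members were higher and 18 lower, against 23.1% of all 15466 genes that were higher and 22.8% that were lower. With the offset 5 were higher and 9 lower, against 18.7% and 21.4%. In the export group 2 were higher and 12 lower, and in the folding group 2 were higher and 6 lower. SRP72 was at 200.1, 226 and 208 CPM in tumors and 407, 438 and 388 CPM in cultures, and every tumor lay below every culture (log2 fold change -0.96 ± 0.09 SE, adjusted p = 3.55e-09, and with the offset -0.64, adjusted p = 1.61e-07). DNAJB11 (ERdj3), a secreted HSPA5 partner, was at 62.1, 74.8 and 64.2 CPM in tumors and 121, 123 and 104 CPM in cultures (log2 fold change -0.79 ± 0.14 SE, adjusted p = 2.79e-05, and with the offset -0.51, adjusted p = 0.00165). DNAJB9 was higher in tumors, at 27.3, 30.1 and 26.4 CPM against 16.5, 19.9 and 18.5 CPM (log2 fold change 0.61 ± 0.20 SE, adjusted p = 0.0134, and with the offset 0.96, adjusted p = 0.000151). The 24 stromal markers summed to 33.6 to 77.1 CPM in Control cultures. Their part in this comparison, and that of mouse reads, was not tested.

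Other genes of the same pathway were read from further lists in the combination against Control, where 17.6% of all genes rose and 26.9% fell without the offset, and 13% and 13.1% with it. Of 16 further folding genes 10 rose and 2 fell, and with the offset 10 rose and 0 fell. DNAJC10 (ERdj5, a disulfide reductase) rose by 0.77 and with the offset by 0.56 on the log2 scale, and MANF, a secreted stress-response protein, by 0.68 and 0.73. CRELD2 fell by 1.01 without the offset and was at -0.11 with it, not called. Of 11 further translocation genes 5 rose and 2 fell, and with the offset 1 rose and 1 fell. The rises without the offset were led by TRAM1, a protein next to the channel (0.69, with the offset 0.44). Of 10 oligosaccharyltransferase genes, which attach N-glycans, 4 rose and 2 fell in each fit. OSTC rose by 0.76 (with the offset 0.51) and DDOST fell by 0.67 (with the offset -0.35, called in both).

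Of 16 tested genes of ER-associated degradation 7 rose and 7 fell in the combination, and with the offset 5 rose and 3 fell, with ERLEC1 (a glycan-binding lectin) at 0.68 and MAN1B1 (an ER mannosidase) at -1.14, and at 0.46 and -0.30 with the offset. Of 13 genes of COPII vesicles, which carry cargo out of the ER, 9 rose and 2 fell, and with the offset 5 rose and 1 fell. SEC24D was at 0.67 (with the offset 0.52), LMAN1 at 0.66 (0.44) and SEC13 at -0.68 (-0.30). Of 8 genes downstream of EIF2AK3, 0 rose and 4 fell without the offset, and 3 rose and 1 fell with it. Among these, DDIT3 (CHOP, linked to cell death after ER stress) was lower in both fits (-0.60 and -0.62), and SESN2 was at -0.64 without the offset and 0.23, not called, with it. The medians over the tested genes of each list, without and with the offset, were 0.32 and 0.32 for further folding, -0.04 and 0.11 for translocation, 0.14 and 0.10 for oligosaccharyltransferase, -0.19 and 0.08 for degradation, 0.32 and 0.20 for COPII and -0.34 and 0.34 downstream of EIF2AK3.

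In Telaglenastat tumors the same lists gave 6 higher and 5 lower of the further folding genes, 3 and 3 of the translocation genes, 3 and 4 of the oligosaccharyltransferase genes, 6 and 9 of the degradation genes, 8 and 2 of the COPII genes and 0 and 6 of the genes downstream of EIF2AK3, against 22.6% of all genes that rose and 28.5% that fell. With the offset these counts were 2 and 2, 0 and 2, 0 and 2, 1 and 3, 1 and 1, and 4 and 0 in the same order, against 5.57% and 7.58% of all genes. The genes downstream of EIF2AK3 thus had no direction that held in both fits. With Palbociclib, where 2.55% of all genes rose and 3.6% fell, 3 of the further folding genes rose (DNAJC10 0.31, QSOX1 0.35 and PDIA5 0.29), 2 of the COPII genes (SEC24D 0.51 and SEC23B 0.29), OSTC (0.35) and ERLEC1 (0.38), and 0 genes of these lists fell. With the offset, where 3.86% of all genes rose and 4.05% fell, 4 further folding, 3 COPII, 2 degradation, 1 oligosaccharyltransferase and 1 translocation gene rose and 0 fell.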

How the data were processed

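RNA from 16 tumors and 12 cultures was sequenced as 60-base single-end reads from a poly(A), strand-marking library kit. RNA integrity numbers were above 8. Per the labels and the study's methods, the authors processed reads with CASAVA 1.8 and STAR against hg38 and deposited whole-number counts per gene. The annotation release and the strand setting of the counting are not given in the sources used here. Samples were grouped by the labels.

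Counts were tested with edgeR 4.0.16 in R 4.3.3: TMM scaling, filterByExpr with a minimum count of 10, glmQLFit and glmQLFTest, and Benjamini-Hochberg adjustment over all genes tested, with a threshold of 0.05. One fit held the 4 tumor groups, one the 4 culture groups, and one all 28 libraries for tumor against culture and for interactions. CPM are on TMM-scaled totals of all 28 libraries. The offset was a natural spline with 4 degrees of freedom on GC content and on log length, fitted per library by robust regression (MASS 7.3.60.0.1). GC content and length came from GENCODE 29, which matched 57940 of 58278 gene identifiers and all 40 members. Promoter windows came from RefSeq on GRCh38.p14.

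Members and lists were chosen with earlier results of these data known. Members given with their values in a comparison were HSPA5, XBP1 and HERPUD1 and, in each of the export and folding groups, those called against Control with the 3 largest rises and 3 largest falls. Members named in other comparisons were picked after their values were seen. Of the other lists, up to 2 called genes each way were named. Alternatives were DESeq2 1.42.0, the size factors of DESeq2 used in edgeR, omitting the filter, fitting the compared groups alone, the replicate number as a block, the offset, both together, and each library left out in turn. SRP19, SRPRB, SSR1, HSP90B1 and DNAJB11 overlap another gene on the same strand. SEC63, SRP9, SRP14, SRP68, SRP72, SPCS2, SSR1, SSR4, PDIA3 and XBP1 have processed pseudogenes, so their counts are uncertain to that extent. Scripts were tested on simulated data. No pair of libraries within a group was found to be a duplicate, and pairs from different groups were not checked.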

Additional observations from a re-analysis of the deposited data

Results flagged for a closer look

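A single library stood apart from the others of its group for 6 of the 120 combinations of a member and a tumor group tested by Dixon's criterion, where chance gives about 1 in 20. SEC61A2 was at 9.01 CPM in Palbociclib tumor 4, with the nearest tumor at 7.09. EIF2AK3 was at 31.0 CPM in Palbociclib tumor 3, with the nearest at 34.2. HERPUD1 was at 52.4 CPM in Palbociclib tumor 5, with the nearest at 70.2. SRP14 and SRP68 were both lowest in Telaglenastat tumor 2, at 128.4 CPM (nearest 143.1) and 190.7 CPM (nearest 203.9). CALR was at 608 CPM in Telaglenastat tumor 1, with the nearest at 668.

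By edgeR's interaction test, the effect in tumors differed from the effect in cultures for 17 members with Telaglenastat and for 7 members with the combination. With the offset for GC content and gene length these numbers were 2 and 3.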

How the results depend on the processing

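Same-numbered samples did not deviate together (correlations -0.13 to 0.09 in tumors, 0 of 21 over 0.1, and -0.43 to 0.14 in cultures, 3 of 18 over 0.1), so replicate numbers do not pair the samples. With the replicate block, 3 members were called for Palbociclib against Control, in place of 5. With the offset alone, members called numbered 21 for the combination, 3 for Telaglenastat and 8 for Palbociclib against Control, 5 for the combination against Palbociclib, 14 for Control tumors against Control cultures, and 2 and 3 for the interactions of Telaglenastat and the combination. With the block and the offset together they were 4 for Telaglenastat against Control, 4 for the combination against Palbociclib and 14 for Control tumors against cultures. Fitting only the compared groups gave 2 for Palbociclib against Control. DESeq2 gave 2 for the combination against Telaglenastat in cultures and 1 for the Palbociclib interaction. Without the filter these were 2 for that culture comparison, and 9 and 3 for the interactions of Telaglenastat and the combination. DESeq2 size factors gave 3 for the combination interaction. Fitting only the 4 groups of each interaction gave 21 for the combination, 11 for Telaglenastat and 1 for Palbociclib. Leaving out each library in turn gave 0 to 5 for Palbociclib against Control, 10 to 17 for the combination against Telaglenastat and 0 to 2 for the same comparison in cultures. It also gave 22 to 28 for Telaglenastat against Control, 30 to 32 for the combination against Control, 31 to 34 for the combination against Palbociclib and 16 to 21 for Control tumors against cultures. Leaving out the culture with Telaglenastat history numbered 2, chosen after seeing the data, gave interactions of 1, 9 and 13. Leaving out Palbociclib tumors 2 and 5, which had the lowest and highest GC slopes, also chosen after seeing the data, gave 5.

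Of the named values, SSR4 in the combination against Control turned to 0.31 with the offset and 0.29 with the block and offset. P4HB turned to 0.11 and 0.14 in that comparison, and to 0.027 under Telaglenastat with the block and offset. Of all 114 member calls in the 5 tumor comparisons, 41 kept their direction and call with the offset, 54 lost the call and 19 changed sign. With the block and offset these numbers were 37, 57 and 20. The calls lost were 1 with DESeq2, 4 with its size factors, 8 without the filter, 6 with only the compared groups and 8 with the block, and none of these changed sign. Over all libraries left out in turn, 796 of the repeated calls were kept and 92 lost. The cause of the changes with the offset was not tested.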
